A study of Mus musculus with 27 samples.

Results

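The apolipoprotein L genes of the mouse were followed through 27 colon RNA libraries from 14 mice. The set held 9 genes (Apol6, Apol7a, Apol7b, Apol7c, Apol7e, Apol9a, Apol9b, Apol10a and Apol10b) of 35975 genes with a transcript in the files. They were picked by their gene symbol and by measured values, since they had been selected on a rise as a family in the proximal colon of deficient mice. The proximal genotype difference of these genes is therefore given as a description with no test. They were tested in distal colon, whose libraries did not enter the selection rule. Members and tests were still chosen with earlier results of these data known. The distal libraries came from 13 of the same 14 mice, so the distal test does not use independent animals.

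Apolipoprotein L proteins are intracellular or secreted proteins that insert into lipid membranes, and human APOL1, the best known of them, forms ion channels and kills trypanosomes. Mice lack a counterpart of APOL1 and carry an expanded set of related genes, most of them side by side on chromosome 15. Several are induced by interferons, and mouse Apol9a and Apol9b are classed as interferon-stimulated genes with antiviral activity. Apol7c has been described in activated mouse dendritic cells, and human APOL6 has been linked to cell death. Foxa1 and Foxa2 are forkhead transcription factors of gut endoderm.

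Deficient mice carried Villin1-Cre with both alleles of Foxa1 and of Foxa2 flanked by lox sites (Villin1-Cre; Foxa1lox/lox; Foxa2lox/lox). Villin1-Cre drives recombination in intestinal epithelium, and other cells of the colon wall are not its target. Of the control mice, 5 carried the same lox alleles without Cre (Foxa1lox/lox; Foxa2lox/lox), the mouse of control replicate 1 was Villin1-Cre; Foxa1lox/wt; Foxa2lox/wt, and that of control replicate 6 was Villin1-Cre; Foxa1lox/lox; Foxa2lox/wt. The labels give a mixed background and ages of 9 to 13 months (deficient) and 9 to 18 months (control). Of the 7 deficient mice, 2 (replicates 5 and 7) were labelled female, and all control mice were labelled male, so sex was not balanced between the genotypes. Poly(A) RNA of short whole-tissue segments was sequenced from 7 deficient and 7 control proximal colons and from 7 deficient and 6 control distal colons, and 13 mice gave both segments. Each replicate was a separate mouse.

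Levels are CPM, gene counts divided by library sizes that were put on 1 scale over all 27 libraries, and libraries held 18472867 to 56744113 estimated counts. Deficient libraries of both segments held 7.21 to 14.5 CPM of Foxa1, against 42.4 to 80.8 CPM in all control libraries but those of control replicate 6, which held 13.9 CPM (proximal) and 7.6 CPM (distal). For Foxa2 the ranges were 0.326 to 1.75 CPM (deficient) and 6.05 to 30.4 CPM (control). The deficient mouse of replicate 3 was labelled male but had the Y-linked Ddx3y at 0.0216 and 0.617 CPM, against 33.3 to 76.0 CPM in the 21 other libraries labelled male. The 10 epithelial marker genes summed to between 11670 and 27160 CPM, and none of them was at 0 throughout a group. In such bulk tissue, fewer cells of a type and less RNA per cell cannot be told apart.

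The 9 genes lie on chromosome 15 of GRCm38. Apol6 (ENSMUSG00000033576.12, 77044729 to 77057106, plus strand) stands apart, 331.1 kb from the other 8, which share 348.2 kb between 77388219 and 77736382. In that stretch, from low to high coordinates, come Apol7a, Apol9a, Apol7b, Apol10a, Apol7c, Apol10b, Apol7e and Apol9b. Apol9a and Apol9b lie near opposite ends, on opposite strands. The copies also resemble each other in sequence, which bears on the values of single copies: a read that matches several copies is divided between them by the quantification model. Of the 31-base words in the transcripts of Apol7b, 79.4% also occur in Apol7e, and 80.2% of those of Apol7e occur in Apol7b. For Apol9b, 64.9% occur in Apol9a. The share of words in common with any other gene was 82.9% for Apol7b, 81.9% for Apol7e, 64.9% for Apol9b and 38.1% for Apol7c. It was 28.2% for Apol10a, 22.2% for Apol7a, 20.2% for Apol9a, 11.7% for Apol10b and 2.95% for Apol6. By this measure the counts of Apol7b, Apol7e, Apol9b and Apol7c are the least certain as single genes. Rows in which copies were summed are given beside them, but the Apol7 and Apol10 sums mostly follow their most abundant copy. Mean CPM over the 27 libraries was 52.5 for Apol7a, against 12.0 for Apol7c, 3.87 for Apol7e and 1.12 for Apol7b. For Apol10a it was 491.5, against 4.04 for Apol10b. These sums therefore say little about Apol7b, Apol7e or Apol10b, and Apol7b and Apol7e were not summed alone. The sums leave out the pseudogenes Gm8221 and Apol10c-ps, the genes that share most words with Apol7c (24.8%) and Apol10a (15.3%).

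Promoter windows of 300 bases, 250 before and 50 after the annotated start, were available from RefSeq (GRCm38.p6) for 8 of the 9 genes. The windows of Apol9a and Apol9b were identical over the 278 bases that could be laid on each other without gaps, whereas those of Apol7b and Apol7e matched at 81.0% of 295 bases. In all, 3 motifs were searched on both strands. The first was GAAANNGAA, the core of the interferon-stimulated response element, where interferon regulatory factors bind. The second was TTCNNNGAA, the gamma-activated site bound by STAT proteins, and the third was the FOXA motif TGTTTAC. The response element core was found in 6 of the 8 genes (Apol7c, Apol7e, Apol9a, Apol9b, Apol10a and Apol10b), and 8.56% of all 32851 RefSeq promoter windows hold it. The gamma-activated site letters were found in 1 gene, Apol10a (8.3% of all windows), and the FOXA letters in 0 of 8 (3.65% of all windows). A match is a description of the letters and not a measured site. The whole windows of the 2 genes with the highest mean level, Apol10a and Apol9a, are shown with every match in capitals. The Apol10a window is chr15:77476797-77477096, plus strand, and the Apol9a window chr15:77411031-77411330, minus strand.
Apol10a promoter: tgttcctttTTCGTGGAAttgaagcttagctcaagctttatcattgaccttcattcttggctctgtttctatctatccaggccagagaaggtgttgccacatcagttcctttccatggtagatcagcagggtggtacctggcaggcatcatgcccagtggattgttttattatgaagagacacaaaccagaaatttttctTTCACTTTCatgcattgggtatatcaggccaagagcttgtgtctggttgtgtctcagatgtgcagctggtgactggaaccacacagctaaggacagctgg
Apol9a promoter: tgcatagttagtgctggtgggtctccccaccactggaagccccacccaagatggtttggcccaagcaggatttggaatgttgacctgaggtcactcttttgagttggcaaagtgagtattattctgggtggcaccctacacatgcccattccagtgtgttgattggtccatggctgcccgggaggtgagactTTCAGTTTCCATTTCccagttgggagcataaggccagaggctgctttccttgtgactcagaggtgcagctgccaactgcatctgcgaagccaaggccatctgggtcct

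The 55 bases around the response element core are shown for each gene that holds it, 5′ to 3′ along the gene, with the core in capitals, to let the copies be compared letter by letter. In Apol7c, Apol7e, Apol9a and Apol9b the capitals cover a pair of overlapping cores read from the opposite strand, and in Apol10a and Apol10b a single core. Apol7b is shown at the place that aligns with Apol7e, where the letters of the core are not present. The stretches lie at chr15:77411104-77411158, minus strand (Apol9a), chr15:77729016-77729070, plus strand (Apol9b), chr15:77533335-77533389, minus strand (Apol7c), chr15:77698834-77698888, plus strand (Apol7e), chr15:77447456-77447510, minus strand (Apol7b), chr15:77476977-77477031, plus strand (Apol10a) and chr15:77596094-77596148, minus strand (Apol10b).
Apol9a: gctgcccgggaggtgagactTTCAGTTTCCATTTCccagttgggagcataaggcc
Apol9b: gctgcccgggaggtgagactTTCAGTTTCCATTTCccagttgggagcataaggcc
Apol7c: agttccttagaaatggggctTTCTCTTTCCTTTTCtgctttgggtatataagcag
Apol7e: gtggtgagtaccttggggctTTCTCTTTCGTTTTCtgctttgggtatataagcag
Apol7b: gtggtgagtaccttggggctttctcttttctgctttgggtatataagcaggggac
Apol10a: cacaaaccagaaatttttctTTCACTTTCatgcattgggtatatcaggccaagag
Apol10b: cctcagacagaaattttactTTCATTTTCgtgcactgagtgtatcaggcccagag

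Per unit of transcript length, Apol10a was by far the most abundant of the 9 genes. On the deposited TPM scale, which accounts for length, the mean level over the 27 libraries was 222.7 TPM for Apol10a, 66.7 TPM for Apol9a, 34.0 TPM for Apol9b, 32.8 TPM for Apol7a and 25.6 TPM for Apol6. Apol7c followed at 8.45 TPM, Apol7e at 3.09 TPM, Apol10b at 2.47 TPM and Apol7b at 1.45 TPM. Apol10a made up 58.1% of the summed TPM of the 9 genes in proximal deficient and 63.3% in proximal control libraries, and 48.1% in distal deficient and 52.5% in distal control libraries. The neighbours Apol9b, Apol7a and Apol6 in this order did not stand apart, with 8.39 to 120.4 TPM, 14.8 to 83.8 TPM and 10.0 to 50.1 TPM over the libraries. The relatives Apol10a and Apol10b thus stood far apart, at 222.7 and 2.47 TPM.

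In proximal colon the mean CPM was higher in deficient mice for 8 of the 9 genes and nearly equal for Apol7e (4.556 CPM in deficient and 4.602 CPM in control mice). The fitted log2 fold changes (deficient over control, edgeR quasi-likelihood fit) ranged from 0.00 for Apol7e to 0.80 for Apol9b, with a median of 0.62, beside a median of 0.01 over all 16787 genes tested. All 9 passed the filter on low counts. Over all genes of this contrast, 11.7% passed an adjusted p of 0.05 (5.52% upward, 6.17% downward). Because the contrast chose the 9 genes, no call is made for them here.

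The proximal groups of Apol6, alone among the 9 genes, did not overlap, in the contrast that chose the genes. The share of all genes whose groups do not overlap was not counted. Apol6 was at 19.2, 25.7 and 33.1 CPM (lowest, median and highest of 7) in deficient mice, against 11.8, 16.1 and 17.6 CPM in control mice. The log2 fold change was 0.78 (SE 0.12), and it lay between 0.70 and 0.88 under every alternative run. The alternatives refit libraries of the contrast that chose the genes, so that range is no separate support. Apol6 was also the gene with the smallest share of sequence in common with other genes.

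Apol10b was at 4.02, 4.71 and 7.34 CPM in deficient mice and at 2.21, 2.75 and 4.02 CPM in control mice. The lowest deficient and the highest control library met at almost the same value, and the log2 fold change was 0.72 (SE 0.17). Its abundant relative Apol10a was at 450.6, 566.8 and 699.9 CPM in deficient mice and at 391.5, 460.6 and 528.4 CPM in control mice, with a log2 fold change of 0.28 (SE 0.11). The relative difference was thus smaller for Apol10a, and in CPM it was larger, at 560.6 ± 92.4 CPM in deficient and 468.0 ± 50.9 CPM in control mice (SD, n = 7 each).

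For both Apol9 copies the proximal groups overlapped. Of the 7 deficient libraries, 3 lay above the highest control library for Apol9a and 5 for Apol9b. Apol9a was at 37.8, 68.1 and 93.3 CPM in proximal deficient mice and at 28.1, 34.0 and 73.4 CPM in control mice, with a log2 fold change of 0.62 (SE 0.26). Apol9b was at 17.5, 32.9 and 45.5 CPM in deficient and at 10.1, 15.7 and 31.5 CPM in control mice, with a log2 fold change of 0.80 (SE 0.30). In the deficient group the low libraries were replicates 3 and 7, at 37.8 and 38.5 CPM of Apol9a. Control replicates 2 and 3, at 65.6 and 73.4 CPM, were at the level of the deficient mice. Summed over both copies, the level was 99.4 ± 33.0 CPM in deficient and 62.9 ± 27.7 CPM in control mice (SD, n = 7 each).

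Within the Apol7 group the genes parted. Apol7c was at 13.9, 14.8 and 18.8 CPM in proximal deficient mice and at 5.04, 11.5 and 14.3 CPM in control mice. All 7 deficient libraries lay above the control mean and 6 lay above the highest control library, and the log2 fold change was 0.70 (SE 0.19). It was 0.49 against control mice without Cre alone. The lowest control value was that of control replicate 6, which carried Cre. Apol7a had a log2 fold change of 0.18 (SE 0.15), Apol7b of 0.30 (SE 0.22) and Apol7e of 0.00 (SE 0.16). The Apol7e values were 2.66, 4.74 and 5.61 CPM in deficient and 3.67, 4.42 and 5.72 CPM in control mice, so these groups covered the same range. The summed Apol7 copies differed by a log2 fold change of 0.29 (SE 0.14).

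**Figure D1:**
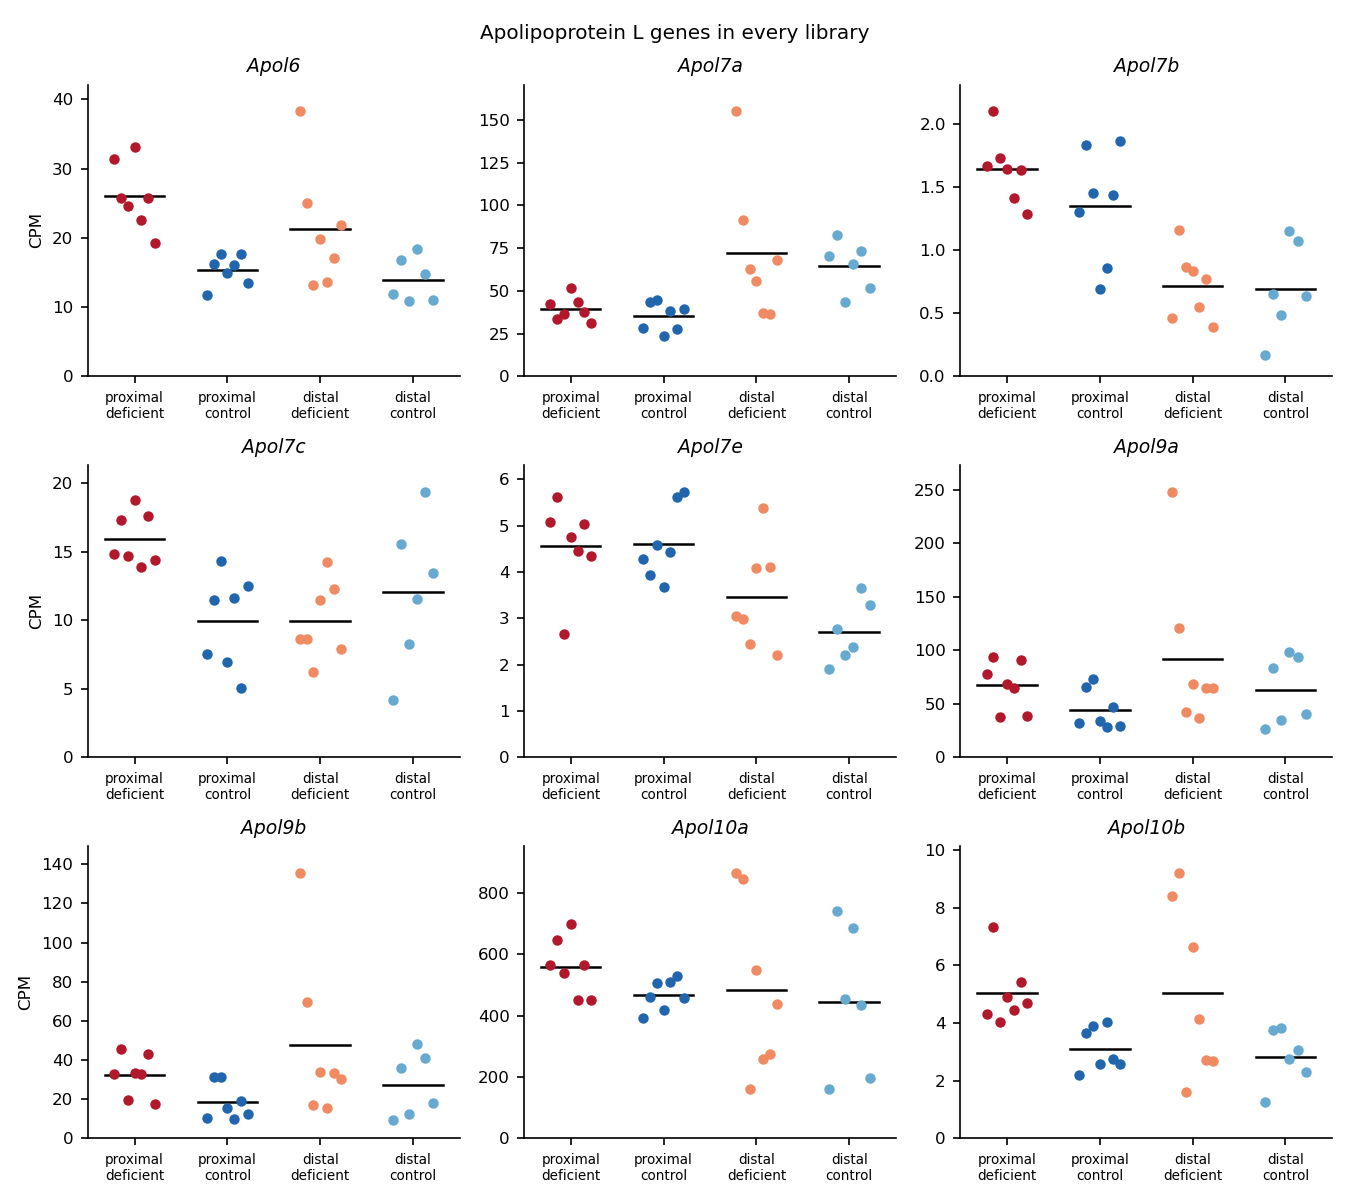
CPM of each of the 9 genes (vertical axes, linear, from 0) in every library, 1 point per mouse, with a bar at the group mean (7 proximal deficient, 7 proximal control, 7 distal deficient and 6 distal control libraries). Apol6 groups do not overlap in proximal colon, whose libraries chose the genes. The distal groups of Apol10a spread from 160.3 to 865.9 CPM in deficient and from 161.5 to 741.2 CPM in control mice.

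In distal colon, where the genes could be tested, 0 of the 9 passed the adjusted threshold. Across all 16041 genes tested there, 6.07% passed it, 2.7% upward and 3.37% downward. Log2 fold changes were above 0 for 8 of the 9 genes (6 to 8 under the alternatives), against 51.7% of all genes. Copies that share reads do not count as separate observations here. The median log2 fold change of the 9 genes was 0.37, with a range from -0.28 to 0.84, beside a median of 0.01 over all genes. At an unadjusted p under 0.05 there was 1 of the 9, Apol6, where 18.4% of all genes reached that level. DESeq2 and limma, run as alternatives, also called 0 of the 9. A p that misses the threshold does not show that the groups were equal, and the intervals below give what the data allow.

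Apol6 came nearest to a distal difference. It was at 13.2, 19.9 and 38.3 CPM in deficient mice (lowest, median and highest of 7), against 10.9, 13.3 and 18.4 CPM in 6 control mice. Of the deficient libraries, 4 lay above the highest control library, and the lowest deficient libraries lay inside the control range. The log2 fold change was 0.62 (SE 0.24, 95% interval 0.10 to 1.14, adjusted p = 0.169 from the edgeR quasi-likelihood test). Under the alternatives the adjusted p lay between 0.102 and 0.452, and without deficient replicate 1, the highest library, the log2 fold change was 0.41. Without deficient replicate 3, whose label and Y-linked RNA disagreed, it was 0.71, and without control replicate 6, low in Foxa1, it was 0.56.

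Apol10b was at 1.6, 4.13 and 9.2 CPM in distal deficient and at 1.25, 2.92 and 3.82 CPM in distal control mice. The 4 libraries of deficient replicates 1, 2, 4 and 5 stood above all control libraries, and the other 3 lay inside the control range. The log2 fold change was 0.84 (SE 0.40, interval -0.05 to 1.73, adjusted p = 0.287 with edgeR), the highest of the 9. Apol10a was at 160.3, 437.0 and 865.9 CPM in deficient mice and at 161.5, 445.3 and 741.2 CPM in control mice. The groups covered nearly the same range, and the log2 fold change was 0.13 (SE 0.44, interval -0.84 to 1.09, adjusted p = 0.917 with edgeR). It changed sign with control mice without Cre alone, at -0.26, and the 2 lowest control values, 161.5 and 198.3 CPM, were those of the Cre-carrying mice of control replicates 1 and 6. Leaving out any 1 of control replicates 1 and 6 or deficient replicates 1 and 2 also put it below 0, at -0.03 to -0.07. Control replicate 6 carried Cre with both Foxa1 alleles flanked by lox sites, and its distal library held 7.6 CPM of Foxa1. A part of the Cre allele, of the lox alleles or of the low Foxa1 in those values was not tested.

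For Apol9a the distal values were 36.6, 65.0 and 247.8 CPM in deficient and 26.4, 61.9 and 98.1 CPM in control mice. A single library, deficient replicate 1, stood far above the others, followed by deficient replicate 2 at 120.9 CPM. The log2 fold change was 0.56 (SE 0.46, interval -0.44 to 1.56, adjusted p = 0.579 with edgeR), and it was 0.09 without deficient replicate 1. Apol9b was at 15.7, 33.3 and 135.5 CPM in deficient and at 9.43, 26.8 and 48.1 CPM in control mice. Its log2 fold change was 0.81 (SE 0.53, interval -0.35 to 1.97, adjusted p = 0.471 with edgeR), and it was 0.29 without deficient replicate 1. Summing both copies gave 140.0 ± 116.3 CPM in deficient mice (SD, n = 7) and 90.2 ± 48.5 CPM in control mice (SD, n = 6), with an adjusted p of 0.537 from edgeR.

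Apol7c was the only 1 of the 9 genes with a distal value below 0. It was at 6.2, 8.61 and 14.3 CPM in deficient and at 4.15, 12.5 and 19.4 CPM in control mice, with a log2 fold change of -0.28 (SE 0.30, interval -0.93 to 0.38, adjusted p = 0.69 with edgeR). In the 9 to 13 month mice alone it was 0.00. Apol7a was at 36.7, 62.8 and 155.3 CPM in deficient and 43.6, 68.3 and 82.8 CPM in control mice, so the deficient group reached both lower and higher, and its log2 fold change was 0.17 (SE 0.30). Apol7e had a log2 fold change of 0.37 (SE 0.23) and Apol7b one of 0.07 (SE 0.37). For the summed Apol7 copies the value was 0.12 (SE 0.24, adjusted p = 0.847 with edgeR), and for the summed Apol10 copies 0.13 (SE 0.44, adjusted p = 0.913 with edgeR).

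**Figure D2:**
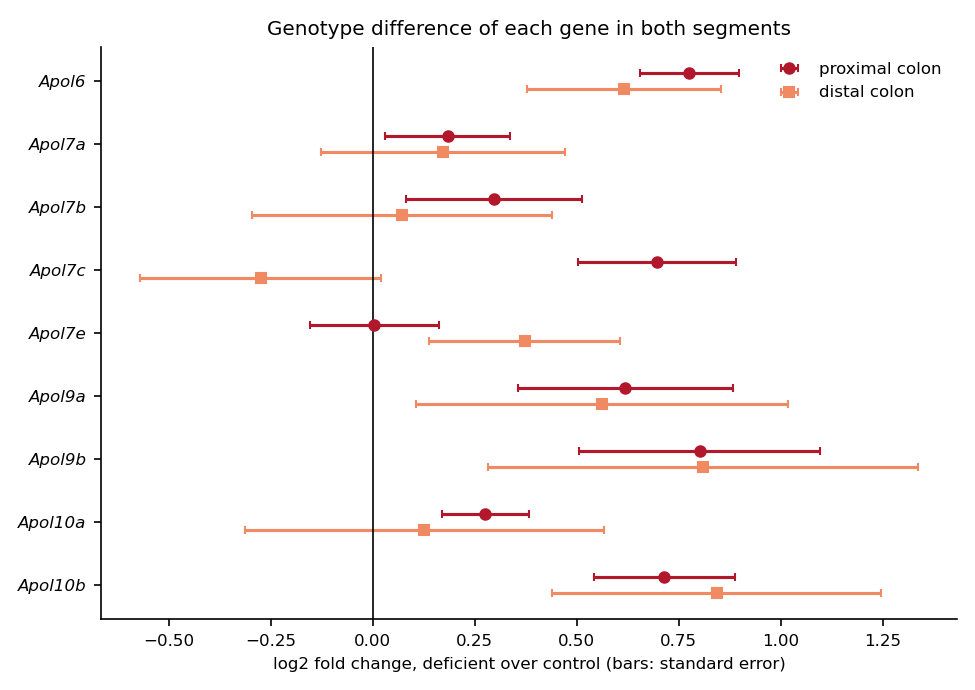
Log2 fold change, deficient over control (horizontal axis), of each gene in proximal colon (circles, a description, since these libraries chose the genes) and distal colon (squares), with bars of 1 standard error. Proximal values run from 0.00 to 0.80 and distal values from -0.28 to 0.84, with wider bars in distal colon.

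The ratio of the highest to the lowest library was larger in distal than in proximal colon for 9 of 9 genes in deficient mice and for 8 of 9 in control mice, the exception being Apol7a in control mice (1.9 in both segments). For Apol10a the highest library was 5.4 times the lowest among distal deficient and 4.59 times among distal control mice, against 1.55 and 1.35 times in the proximal groups of the same genotypes. For Apol9a the ratios were 6.77 and 3.71 in distal deficient and control mice, and 2.47 and 2.61 in proximal deficient and control mice. Apol6 spread 2.91-fold in distal deficient mice and at most 1.72-fold in the 3 other groups. What set this spread was not tested.

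Within mice, the segments were compared as paired values without a test, because the proximal libraries had chosen the genes. Apol7a was higher in the distal than in the proximal segment in 5 of 7 deficient mice and 5 of 6 control mice, with a median log2 difference (distal over proximal) of 0.78 and 0.93. Apol7b was lower in the distal segment in 7 of 7 deficient and 4 of 6 control mice, and Apol7e in 6 of 7 deficient and 6 of 6 control mice. Apol7c was lower in the distal segment in 6 of 7 deficient mice, at a median log2 difference of -0.75, and in 2 of 6 control mice, at a median of 0.56. A difference of that paired value between genotypes was not tested. Apol10a went both ways, lower in the distal segment in 5 of 7 deficient and 4 of 6 control mice, with single mice between -1.75 and 0.71. The segments also differed in how the authors' quantification set fragment length, and a part of that in these paired values was not tested.

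**Figure D3:**
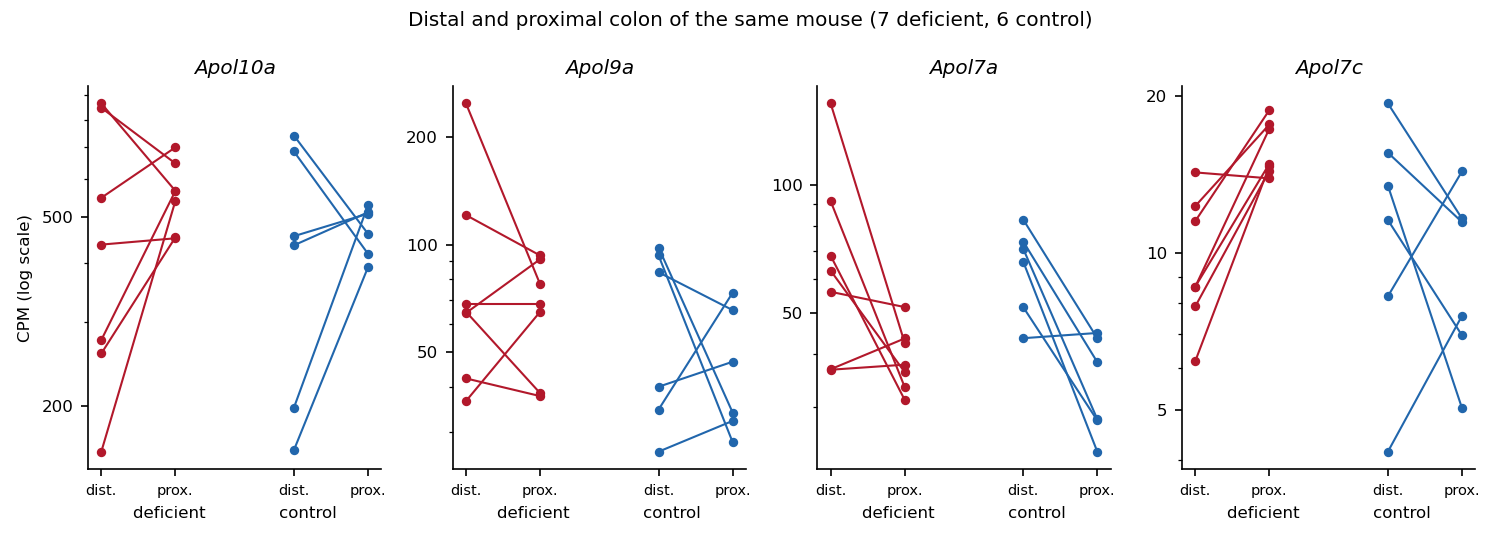
CPM on a log scale (vertical axes) of Apol10a, Apol9a, Apol7a and Apol7c in the distal (left end) and proximal (right end) colon of the same mouse, 1 line per mouse, for 7 deficient mice (left pair of columns) and 6 control mice (right pair). Apol7a is higher at the distal end in 10 of 13 mice, and Apol10a lines cross in both genotypes.

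The genes varied together within groups to different degrees. Correlations were taken over 27 libraries on log2(CPM + 1) after removing the mean of each of the 4 groups. These are descriptions, since the libraries come from 14 mice and share depth and tissue composition within a mouse. Of 36 pairs among the 9 genes, 34 were above 0, with a median r of 0.42. Apol9a and Apol9b were closest (r = 0.99), and they share sequence; their CPM ratio stayed between 1.74 and 3.18 in all libraries. Apol6 went with Apol9a (r = 0.83), Apol10a (r = 0.8) and Apol7a (r = 0.75), and Apol10a with Apol10b (r = 0.81). Apol7c and Apol7e had r = 0.56 with each other, with r = 0.82 within distal and r = 0.09 within proximal libraries. Apol7c also went with Apol7b (r = 0.46) and, within proximal libraries, with Apol7a (r = 0.75) and Apol10b (r = 0.56). Apol7e had r between -0.24 and 0.32 with the 7 other genes.

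Likeness was computed over 14276 genes with a mean of at least 1 CPM, a count that includes family genes. Outside the family, the 5 most like Apol9a were Xaf1 (r = 0.97), Oasl2 (r = 0.96), Isg15 (r = 0.95), Oas3 (r = 0.95) and Lgals9 (r = 0.94). The first 4 are on the list of interferon-stimulated genes, and Lgals9 encodes a galectin. They kept r of at least 0.84 within the 14 proximal libraries and at least 0.96 within the 13 distal libraries. The 5 most like Apol10a were Sptssb (a subunit of the enzyme that starts sphingolipid synthesis), Igf2bp2 (an RNA-binding protein), H2-T3 (a non-classical MHC class I gene), Chn2 and Pdgfc (a growth factor), with r from 0.91 to 0.94. Those rested mainly on distal libraries, since within proximal libraries r was between 0.14 and 0.81.

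The 9 genes were also set against the summed CPM of 27 interferon-stimulated genes. The r was 0.97 for Apol9a, 0.96 for Apol9b, 0.85 for Apol6, 0.71 for Apol7a, 0.69 for Apol10a and 0.6 for Apol10b. It was 0.35 for Apol7b, 0.3 for Apol7c and 0.03 for Apol7e. After leaving out the 2 libraries farthest from the median of the summed list, r was 0.95 for Apol9a, 0.94 for Apol9b, 0.76 for Apol6, 0.61 for Apol10a, 0.55 for Apol10b and 0.51 for Apol7a. It was then higher for the genes that had been lowest, at 0.54 for Apol7c, 0.53 for Apol7b and 0.30 for Apol7e, so the order below Apol6 rested in part on those 2 libraries. Deficient replicate 1, the highest distal library for Apol9a, also had the highest sum, at 7413 CPM, followed by deficient replicate 2 at 4234 CPM, against 1485 to 3112 CPM in distal control mice. In proximal colon the sum was between 1316 and 2882 CPM in deficient and between 1217 and 2258 CPM in control mice, and control replicates 2 and 3, the high control libraries of Apol9a, held its highest control sums of 2233 and 2258 CPM. Apol7c and Apol7e also went with markers of other cells. Their r with the 12 dendritic cell markers was 0.64 and 0.54, with the 11 T and NK cell markers 0.71 and 0.62, and with 6 smooth muscle markers 0.63 and 0.58. Other lists were also above 0, with macrophage markers at 0.53 and 0.33, B cell markers at 0.51 and 0.42, and endothelial markers at 0.42 and 0.50. For Apol7e, r with the dendritic, T and NK, and smooth muscle lists was 0.24, 0.29 and 0.15 within proximal libraries. Within distal libraries these were 0.67, 0.80 and 0.79. Within proximal libraries Apol7c had r = 0.77 with the interferon gamma response list and r = 0.72 with the dendritic cell markers, and within distal libraries 0.20 and 0.63. Summed dendritic cell markers were at 20.2 to 25.6 CPM in proximal deficient and at 13.7 to 29.9 CPM in proximal control mice. In distal colon they were at 13.4 to 62.2 CPM in deficient and at 13.8 to 48.0 CPM in control mice, with no marker at 0 in any group. The part of these cells in the Apol7c values was not tested.

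**Figure D4:**
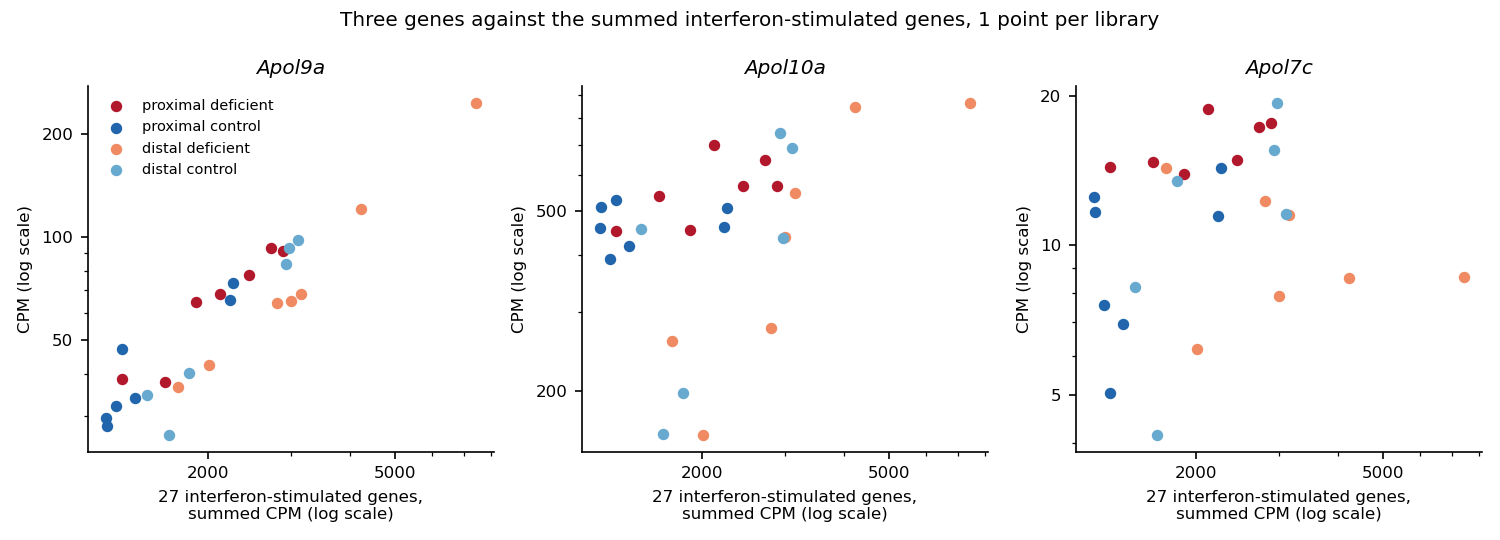
CPM of Apol9a, Apol10a and Apol7c (vertical axes, log scale) against the summed CPM of 27 interferon-stimulated genes (horizontal axes, log scale), 1 point per library and 1 colour per group. Apol9a climbs with the sum in all 4 groups (r = 0.97 after removing group means), and Apol7c is more scattered (r = 0.3, or 0.54 without the 2 libraries farthest from the median sum).

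The interferon pathway itself was counted on lists of named genes. Of 27 interferon-stimulated genes, 3 rose in proximal deficient mice and 0 fell, with a median log2 fold change of 0.56. These were Ifit3, an antiviral RNA-binding protein, at 53.2 ± 27.5 CPM in deficient and 23.5 ± 10.8 CPM in control mice (SD, n = 7 each, log2 fold change 1.19, adjusted p = 0.0213 with edgeR), the chaperone-like Rtp4 (0.69, adjusted p = 0.0328 with edgeR) and the viral RNA sensor Ddx58 (0.52, adjusted p = 0.0328 with edgeR). Of the 27 genes, 24 had a log2 fold change above 0, against 51.6% of all genes. An unadjusted p under 0.05 with edgeR was reached by 15 of 27, against 22.9% of all genes, and DESeq2 called 8. The count of genes called by edgeR was unstable. It was 0 with control mice without Cre alone or with 9 to 13 month mice alone, 1 without any 1 of control replicates 1, 4, 5 and 7 or deficient replicates 1, 2, 4 and 6, 6 without deficient replicate 7, 8 without control replicate 2, and 10 without control replicate 3. In distal colon 23 of 27 were above 0, against 51.7% of all genes. There 7 had an unadjusted p under 0.05 with edgeR, against 18.4% of all genes, and DESeq2 called 2. At the adjusted threshold with edgeR 2 of 27 rose and 0 fell in distal colon, with a median of 0.57. Ifit2 was at 425.0 ± 291.7 CPM in deficient (SD, n = 7) and 109.9 ± 38.2 CPM in control mice (SD, n = 6), with a log2 fold change of 1.96 and an adjusted p of 0.0107 from edgeR, and Ddx58 had 0.89 (adjusted p = 0.0304 with edgeR). That count fell to 1 when any 1 of control replicates 1, 3 and 6 and deficient replicate 2 was omitted, and to 0 with replicate number as a block (Ifit2 adjusted p = 0.107 with edgeR).

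Of 21 interferon gamma response genes, 1 rose and 1 fell in proximal deficient mice, and 2 rose and 1 fell in distal deficient mice. The guanylate-binding protein gene Gbp3 rose in both segments, with log2 fold changes of 0.84 in proximal and 1.39 in distal colon (adjusted p = 0.0163 and adjusted p = 0.00233 with edgeR), and Gbp7 rose in distal colon (0.74, adjusted p = 0.0362 with edgeR). The proximal Gbp3 call was lost against control mice without Cre alone (adjusted p = 0.0703 with edgeR) and in 9 to 13 month mice alone (adjusted p = 0.109 with edgeR). The distal count of rising genes was 1 when any 1 of replicates 1, 2 and 4 of either genotype was omitted, and 5 with DESeq2. Ido1, which degrades tryptophan, fell to 1.07 ± 0.70 CPM in proximal deficient mice, against 11.5 ± 8.22 CPM in control mice (SD, n = 7 each, log2 fold change -3.40, adjusted p = 0.000155 with edgeR). It also fell in distal colon (-3.17, adjusted p = 1.8e-05 with edgeR). The list thus held called genes of both directions. Its median log2 fold change was -0.185 in proximal colon, with 8 of 21 above 0, and 0.645 in distal colon, with 18 of 21 above 0. An unadjusted p under 0.05 with edgeR was reached by 3 of 21 in proximal colon and 11 of 21 in distal colon. Over all genes, 22.9% and 18.4% reached that level. Of 12 interferon receptor and signalling genes, 1 rose in proximal colon, Ifngr2 (0.36, adjusted p = 0.0141 with edgeR, lost in 9 to 13 month mice alone), with 2 genes called without deficient replicate 2, and 0 of 12 passed in distal colon with edgeR and with DESeq2 (3 at an unadjusted p under 0.05).

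Further gene groups were set beside the family. Plasma apolipoproteins share the name but not the structure. Of 12 of them, 5 rose in proximal deficient mice and 0 fell, led by Apoa4 (log2 fold change 7.83) and Apoa1 (7.18), which small-intestinal enterocytes secrete with dietary fat, and Apob (1.37). In distal colon 0 of 9 passed with edgeR (3 at an unadjusted p under 0.05) and 1 with DESeq2. There 1 gene rose with edgeR when any 1 of control replicates 5 and 6 and deficient replicates 2, 4 and 5 was omitted, and 1 fell without control replicate 5. Of 15 small-intestinal enterocyte genes 13 rose in proximal deficient mice, and the 16 genes of the list summed to between 1506 and 4097 CPM there, against 644.4 to 1243 CPM in control mice, without overlap between the groups. The smallest p-values there were those of the peptidase gene Anpep (log2 fold change 5.38), Treh (3.85) and Mttp (3.46). In distal colon 9 of 14 rose, with Enpep (3.21), Slc6a19 (4.21) and Mttp (1.65) first, and the list summed to between 362.9 and 900.2 CPM in deficient and between 342.2 and 579.6 CPM in control mice. A part of that shift in the Apol values was not tested. Within groups, r between this summed list and Apol9a was -0.07 over the 14 proximal libraries and 0.78 over the 13 distal libraries. Across the 9 genes it ran from -0.48 (Apol10b) to 0.155 (Apol7a) in proximal libraries. In distal libraries it ran from -0.54 (Apol7e) to 0.85 (Apol7a). Of 12 gasdermins and other pore-forming effectors 0 rose and 2 fell in proximal colon, Gsdma (-1.83) and Gsdmc (-1.42), and of 11 in distal colon 2 rose and 4 fell, among them Ninj1 (0.44) and Gsdmc4 (-1.99). The distal counts were unstable. The rising count was 0 or 1 in 20 of 22 alternatives, including the omission of any 1 library other than control replicate 6. The falling count was 1 to 5, and 2 without any 1 of control replicates 2 to 5 or deficient replicates 5 to 7. Of 4 Paneth cell genes tested in each segment, Ang4 (3.87) rose and Mmp7 (-2.15) fell in proximal colon, and Mmp7 (3.23) rose and Itln1 (-3.44) fell in distal colon. Among 11 T and NK cell markers Lck (-0.57) fell, and among 6 fibroblast markers Pdgfra (0.54) rose, both in proximal colon. The Lck call was lost in 9 to 13 month mice alone and the Pdgfra call against control mice without Cre alone. In distal colon 0 of 10 and 0 of 6 of these passed with edgeR and with DESeq2 (0 and 1 at an unadjusted p under 0.05). The epithelium, dendritic cell, macrophage, B cell, endothelium and smooth muscle lists had 0 genes past the adjusted threshold with edgeR in both segments. At an unadjusted p under 0.05 the B cell list had 6 of 9 in proximal colon (2 called by DESeq2, all 9 log2 values below 0) and each other list 0 to 3, with 1 dendritic cell gene called by DESeq2 in distal colon. The proximal B cell count turned on single libraries. With edgeR, 7 of 9 fell without deficient replicate 5, 3 in mice labelled male alone, 3 against control mice without Cre alone, and 1 without control replicate 3 or 6. In proximal colon 1 epithelial gene rose without control replicate 6, and 1 endothelial gene without deficient replicate 4.

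Around the family, 28 other genes within 500 kb of a member's start were tested in proximal colon, and 1 was called. This was Gm8221 (chr15:77621834-77626637), annotated by RefSeq as a pseudogene, at a mean of 1.85 CPM in deficient and 0.954 CPM in control mice (log2 fold change 0.97, SE 0.26, adjusted p = 0.0196 with edgeR). It lies inside the cluster and shares 24.8% of the 31-base words of Apol7c, more than any other gene, and how its reads were divided was not tested. With replicate number as a block its adjusted p was 0.0593, and with control mice without Cre alone 0.0708. In distal colon 0 of 27 such genes passed with edgeR (3 at an unadjusted p under 0.05) and 2 with DESeq2. There Gm8221 was lower, at 0.561 CPM in deficient and 1.47 CPM in control mice (log2 fold change -1.36, SE 0.46, adjusted p = 0.104 with edgeR, 0.0461 with DESeq2 and 0.0337 with edgeR against control mice without Cre alone). The median log2 fold change of the neighbours was -0.03 in proximal and -0.04 in distal colon. For the 9 genes it was 0.37 in distal colon. Their proximal median of 0.62 comes from the contrast that chose them, so no comparison with the neighbours is drawn from it.

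Further genes of the family, outside the 9, were set beside them. Apol11a was at 0.406 ± 0.129 CPM in proximal deficient and 0.209 ± 0.116 CPM in control mice (SD, n = 7 each), and did not pass (log2 fold change 0.99, SE 0.35, adjusted p = 0.088 with edgeR). Apol11b did not pass either (0.95, SE 0.38, adjusted p = 0.13 with edgeR), nor did the endothelial Apold1 (-0.08, SE 0.18), and Apol8 was at most 0.193 CPM in all libraries and was not tested. The pseudogene Apol10c-ps, named after its values were seen, was at 13.6 ± 5.07 CPM in proximal deficient and 6.79 ± 1.89 CPM in control mice (SD, n = 7 each, log2 fold change 1.01, SE 0.23, adjusted p = 0.00678 with edgeR). It shares more sequence words with Apol10a (15.3% of those of Apol10a) than any other gene does. In distal colon it was at 0.533, 1.43 and 12.2 CPM in deficient and at 0.0433, 0.956 and 1.92 CPM in control mice, and did not pass (2.07, SE 0.85, adjusted p = 0.209 with edgeR).

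A last point concerns the gene matrix deposited by the authors, which gives 1 log2 CPM value per gene and library. For 7 of the 9 genes it followed the summed transcripts closely, with median differences between -0.17 and 0.17. Apol7b differed by up to 1.22 in single libraries. Apol9b was lower in the deposited matrix by a median of 1.69 on the log2 scale. Per transcript, the 1529-base transcript of Apol9b held 60.5% of its counts in proximal and 72.8% in distal libraries, and a 1573-base transcript held 31.3% and 22.0%. The deposited value followed the 1573-base transcript alone, with a median difference of 0.10 in the 25 libraries where that transcript had at least 59.4 counts. In distal control replicates 1 and 3, where it had 0.0 counts (rounded to 1 decimal) and the gene as a whole had 217.5 and 495.0 counts, the deposited value was -4.02. With the deposited matrix and limma the distal log2 fold change of Apol9b was 2.32 (adjusted p = 0.392), against 0.81 from the summed transcripts, and the proximal one was 1.37, against 0.80. The direction did not differ, and the size depended on which transcripts were counted.

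**Figure D5:**
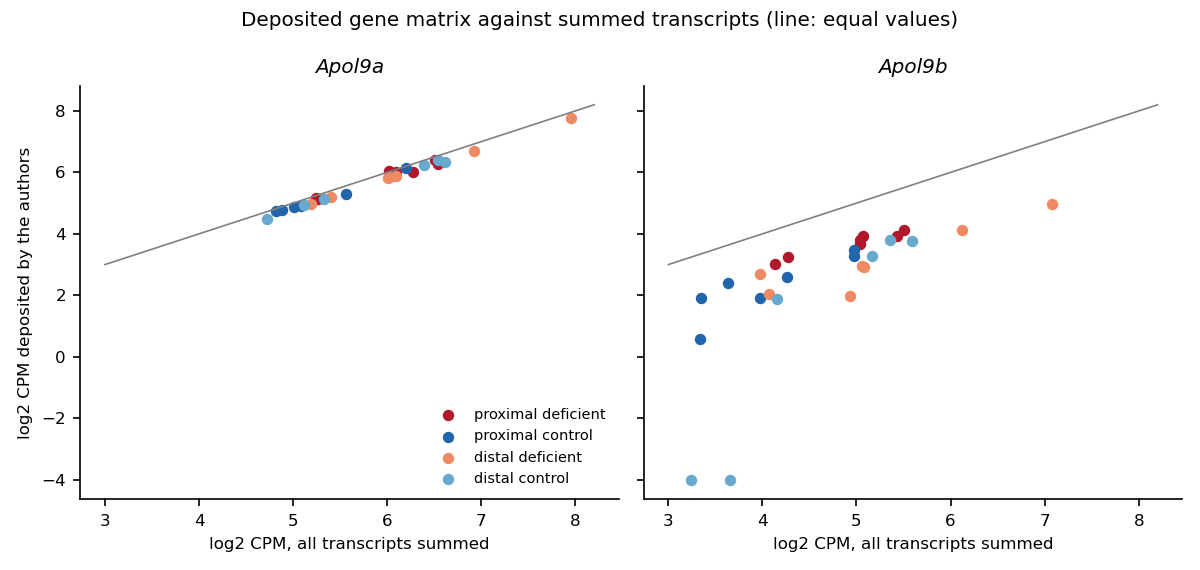
Log2 CPM in the matrix deposited by the authors (vertical axes) against log2 CPM of all transcripts summed (horizontal axes) for Apol9a and Apol9b, 1 point per library, with a line of equal values. Apol9a lies close to the line, and Apol9b lies below it in all 27 libraries, at -4.02 in distal control replicates 1 and 3.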

How the data were processed

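Poly(A) RNA of proximal and distal colon was measured in 27 libraries. The tools named per the submitters' processing notes are kallisto 0.46.2, cutadapt 2.5, bcl2fastq 2.20.0.422 and edgeR, with the builds GRCm38 and mm10. The authors deposited each estimated count per transcript, which need not be whole, and its TPM. They also deposited 1 matrix per segment of log2 CPM per gene, and the sources used here do not give its scaling. The gap between full and effective transcript length differed between the segments, at 249 bases in distal and 215 to 246 bases in proximal libraries.

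Transcripts were joined to GENCODE M21 genes (116728 of 119414 matched), and counts were summed per gene and rounded. Unmatched transcripts held 0.9% to 1.27% of a library. Totals were 35961132 to 54196293 in proximal and 18472867 to 56744113 in distal libraries. Each segment was fitted with edgeR 4.0.16 (glmQLFit and glmQLFTest, filterByExpr, TMM, R 4.3.3), and Benjamini-Hochberg adjustment ran over all genes. Intervals are log2 fold change ± t times SE on 11 residual degrees of freedom. DESeq2 1.42.0 and limma 3.58.1 were alternatives. The fits were tested on simulated data. Levels are CPM on 1 TMM scale over 27 libraries, and transcripts were compared in words of 31 bases. Named are all 9 members, other Apol genes, the 5 genes most like each of the 2 members of highest mean CPM (mean of at least 1 CPM), and of each list up to 3 called genes of smallest p. Some lists shown by counts alone had further called genes. Members, lists and tests were chosen with earlier results of these data known.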

Additional observations from a re-analysis of the deposited data

Results flagged for a closer look

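Each of the 9 genes was examined in each of the 4 groups for a library far from the others, which makes 36 sets of 6 or 7 libraries. Chance flags about 1 in 20 such sets, and 1 was found. Apol7e was at 2.66 CPM in proximal deficient replicate 3, the lowest of 7, where the other 6 libraries were between 4.34 and 5.61 CPM. This is the mouse labelled male whose Y-linked RNA was near absent. Without it the proximal log2 fold change of Apol7e was 0.10, against 0.00 with all libraries.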

How the results depend on the processing

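Of the distal results, 0 of the 9 genes and 0 of the 3 summed copies passed the threshold under each of the 22 alternatives, among them DESeq2, limma and the omission of each library. The number of distal genes called was 973 and 1504 with the DESeq2 Wald test, and between 654 and 1007 under the others. Genes called in proximal colon numbered 1962, between 1534 and 2468 under 23 alternatives. Several distal log2 fold changes close to 0 changed sign, all without passing the threshold. Apol7b was -0.20 with a transcript-length offset, -0.19 with control mice without Cre alone, -0.12 in the deposited matrix with limma, and between -0.12 and 0.26 when single libraries were left out. Apol10a was -0.26 with control mice without Cre alone, -0.08 in mice of 9 to 13 months, and between -0.072 and 0.338 when single libraries were left out. The summed Apol10 copies gave -0.255 and -0.073 in the same samples, and between -0.065 and 0.343 without single libraries. Apol7c was 0.002 in mice of 9 to 13 months. Without single libraries Apol7a lay between -0.13 and 0.29 and the summed Apol7 copies between -0.12 and 0.22. The cause was not tested. Whether replicate numbers paired deficient with control mice cannot be settled from the values. Deviations of same-numbered libraries correlated at -0.139 to 0.325, with replicate 2 the highest in both segments (0.325 in proximal and 0.314 in distal colon). With replicate number as a block, 689 distal and 1696 proximal genes were called, and 0 distal members passed. A block moved the distal genes higher in deficient mice to 284, against 433 without it. The transcript-length offset gave 870 distal genes. The number of mice and the spread of distal values limit what could be detected, and reads of near-identical copies limit each single gene.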
